A study of Mus musculus with 12 samples.

Results

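The neuropeptide genes of sensory neurons, 10 in number, were examined for open chromatin in mouse dorsal root ganglia, the clusters beside the spinal cord that hold the cell bodies of sensory neurons together with glia, vascular and immune cells. The genes were chosen by name: Gal, Npy, Vip, Nts and Adcyap1, whose peptides are known to rise in sensory neurons when their axon is cut, Calca, Calcb, Tac1 and Sst, known to fall, and Bdnf, a neurotrophin that is packed with peptides in the same vesicles. They are 10 of 21887 protein-coding genes of the RefSeq table (GRCm38.p6, the build also called mm10). Accessibility had been measured by ATAC-seq, in which a transposase cuts open DNA and leaves adapters there, in lumbar ganglia L4 to L6, 6 to a preparation, of Silc1-/- mice and of wild-type (WT) mice; Silc1 is a long noncoding RNA gene. Each genotype was studied after a crush of the sciatic nerve at mid-thigh (injured) and after a sham operation, with 3 libraries in each of the 4 groups: Silc1-/- injured, Silc1-/- sham, WT injured and WT sham. Males of the C57black6 Ola HSD strain were bought and other strains bred in house, without the labels saying which group came from which. They give no age for these mice, no time after surgery and no account of how the Silc1 allele was made, and whole ganglia were used.

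The data are 1 list of peak summits per group. Every value therefore belongs to a single list, the spread between animals is unknown and differences between groups could not be tested. A summit is the base of highest signal in a peak, and its score is the authors' own value on a −log10 scale. The lists held 35815 summits in Silc1-/- injured, 48332 in Silc1-/- sham, 43841 in WT injured and 27279 in WT sham ganglia; the read depth behind them is unknown. Counts compared between lists were therefore scaled to list length. In bulk tissue, fewer cells with an open site and less opening per cell cannot be told apart. The tissue label was checked at start sites. Of 7 sensory neuron markers with an annotated start site, 4, 7, 5 and 4 had a summit within 500 bp in Silc1-/- injured, Silc1-/- sham, WT injured and WT sham. The share of all coding genes was 46.7%, 51.5%, 52.8% and 48.0% in the same order, so only Silc1-/- sham stood well above it. None of 3 skeletal muscle and none of 3 liver markers had such a summit. For glia and Schwann cells the numbers were 0, 1, 1 and 0 of 2 genes, for endothelium 0, 0, 1 and 0 of 2, and for macrophages 0 of 3 in each list. Within 50 kb, the median count over all lists was 13.5 for neuron, 12 for glia and Schwann cell, 22 for macrophage and 18 for endothelial markers. It was 12 for liver markers, 8.5 for muscle markers and 14 for all coding genes. With so few genes this is a weak check of the tissue. The gene table does not list Silc1 under that name. It was taken from general knowledge to be Gm9866, and the nearest summit to that gene was 22.6 to 82.7 kb away, so these lists give no check of the genotype.

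Neuropeptides are made as precursors, cut in dense-core vesicles and released from nerve endings in skin, gut and spinal cord, where they act on G-protein-coupled receptors. In uninjured ganglia, CGRP (from Calca and Calcb), substance P (from Tac1) and somatostatin mark pain-sensing neurons. After axotomy those genes are turned down while galanin, neuropeptide Y, VIP, neurotensin and PACAP are made in neurons that had little of them, a switch seen as part of the cell-body response to nerve injury. Many peptide promoters are known targets of CREB and related factors, which bind the cyclic AMP response element (CRE).

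The RefSeq promoters of 9 members were available, 16 in all, each running from 250 bases before to 50 after a start site; Calcb was not in the table. Promoters of 5 members are shown on the gene's own strand, because one carries the only summit inside a member's promoter window (Tac1), one the only full CRE (Sst), and the others belong to the peptide with most summits (Gal) and to both peptides with none (Npy and Vip). Capitals mark every match, on either strand, to the 6 motifs searched: CRE (TGACGTCA), CRE core (TGACG), AP-1 (TGANTCA), STAT (TTCCNGGAA), GC box (GGGCGG) and TATA box (TATAAA). A full CRE also counts as a core.
Gal, chr19:3414495-3414794, minus strand: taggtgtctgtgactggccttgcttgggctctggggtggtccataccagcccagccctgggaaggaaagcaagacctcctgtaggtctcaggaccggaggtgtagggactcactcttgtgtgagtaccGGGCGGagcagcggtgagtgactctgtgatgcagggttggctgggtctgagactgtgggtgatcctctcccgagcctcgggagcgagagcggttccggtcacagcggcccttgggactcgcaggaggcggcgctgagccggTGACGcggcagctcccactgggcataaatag
Npy, chr6:49822460-49822759, plus strand: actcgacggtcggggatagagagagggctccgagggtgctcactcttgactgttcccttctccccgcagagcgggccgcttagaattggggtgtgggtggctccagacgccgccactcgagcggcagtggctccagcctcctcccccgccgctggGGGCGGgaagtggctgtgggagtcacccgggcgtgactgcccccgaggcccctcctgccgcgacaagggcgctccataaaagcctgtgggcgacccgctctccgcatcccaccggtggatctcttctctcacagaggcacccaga
Vip, chr10:5638968-5639267, plus strand: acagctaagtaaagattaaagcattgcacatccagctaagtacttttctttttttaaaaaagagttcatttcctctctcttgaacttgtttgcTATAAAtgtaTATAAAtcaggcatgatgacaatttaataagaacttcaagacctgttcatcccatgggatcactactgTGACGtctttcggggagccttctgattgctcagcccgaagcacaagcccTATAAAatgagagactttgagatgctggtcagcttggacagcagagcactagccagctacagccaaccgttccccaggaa
Tac1, chr6:7554811-7555110, plus strand: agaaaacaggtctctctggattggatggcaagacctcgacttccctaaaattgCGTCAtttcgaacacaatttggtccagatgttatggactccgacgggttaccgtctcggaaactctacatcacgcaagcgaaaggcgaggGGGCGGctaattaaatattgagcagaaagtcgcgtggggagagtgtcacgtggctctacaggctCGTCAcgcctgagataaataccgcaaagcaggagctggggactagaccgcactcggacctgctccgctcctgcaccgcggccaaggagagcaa
Sst, chr16:23890795-23891094, minus strand: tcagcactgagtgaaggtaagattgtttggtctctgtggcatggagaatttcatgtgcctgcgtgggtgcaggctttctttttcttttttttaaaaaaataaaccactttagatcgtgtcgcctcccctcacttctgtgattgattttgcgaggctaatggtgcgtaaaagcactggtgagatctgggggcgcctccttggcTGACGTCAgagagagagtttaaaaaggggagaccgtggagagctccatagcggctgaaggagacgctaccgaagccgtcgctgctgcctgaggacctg

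The CRE core was the motif that the members' promoters shared most. It was found in 9 of the 16 promoters, against 20.8% of all 32851 promoters in the table, and of the 9 genes Npy alone had none. Both promoters of Adcyap1 overlap and hold the same match. Counted from the start site, with negative positions upstream, the match began at -79 in Vip, -65 in Calca, -91 in Adcyap1 (first start site), -166 in Nts and -197 and -43 in Tac1. In Gal it began at 20, inside the transcribed sequence, and in Bdnf it was in 1 of 7 promoters. The full CRE of Sst began at -48; 1.79% of all promoters have one. AP-1 matches were found in Nts and in 1 promoter of Bdnf (2 of 16, against 7.81% of all), a GC box in 5 (35.7%), a TATA box in 2 (13.6%) and the STAT motif in none (1.15%). These are letter matches, and nothing about binding follows from them.

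Start sites of peptide genes were mostly without a summit. Of the 9 members with an annotated start site, 7 had no summit within 500 bp of one in any list: Gal, Npy, Vip, Nts, Adcyap1, Calca and Sst. Over all coding genes with a start site in the table, 43.1% had none. The members with a summit there numbered 1 in Silc1-/- injured, 2 in Silc1-/- sham, 0 in WT injured and 1 in WT sham, where the share of all 17492 coding genes was 46.7%, 51.5%, 52.8% and 48.0%. Calcb had no summit within 500 bp of either gene end.

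The exceptions were Tac1 and Bdnf. Tac1, the gene of substance P and neurokinin A, had a summit 42 bp after its start site in Silc1-/- sham alone (chromosome 6, position 7555103), within the promoter printed above. Its score of 1.87 was low: 97.3% of that list scored as high or higher. Bdnf, whose 7 annotated start sites give it more chances of a match, had summits before the first of them in both sham lists and in neither injured list. They lay 394 bp upstream in Silc1-/- sham (chromosome 2, 109674306, score 1.87) and 438 bp upstream in WT sham (109674262, 2.92). After its second start site, both Silc1-/- lists had summits, 366 bp downstream in injured (109677398, 4.39) and 471 bp downstream in sham (109677503, 2.42).

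The GC content of the members' promoters lay closer to that of promoters without summits. Its median was 49.7% over the 16 promoters of members, 62.7% over 8289 coding-gene promoters with a summit in all 4 lists, 60.0% over 3312 with one in 1 to 3 lists and 48.7% over 9662 with none. The median number of CpG dinucleotides was 10 in members, 24, 17 and 4 in the other classes. Npy had the highest GC content of the 16 promoters, at 68.0%, with 24 CpG dinucleotides, and no summit in any list. Vip, at 41.7% and 4 CpG, and Nts, at 49.0% and 3, were CpG-poor.

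**Figure D1:**
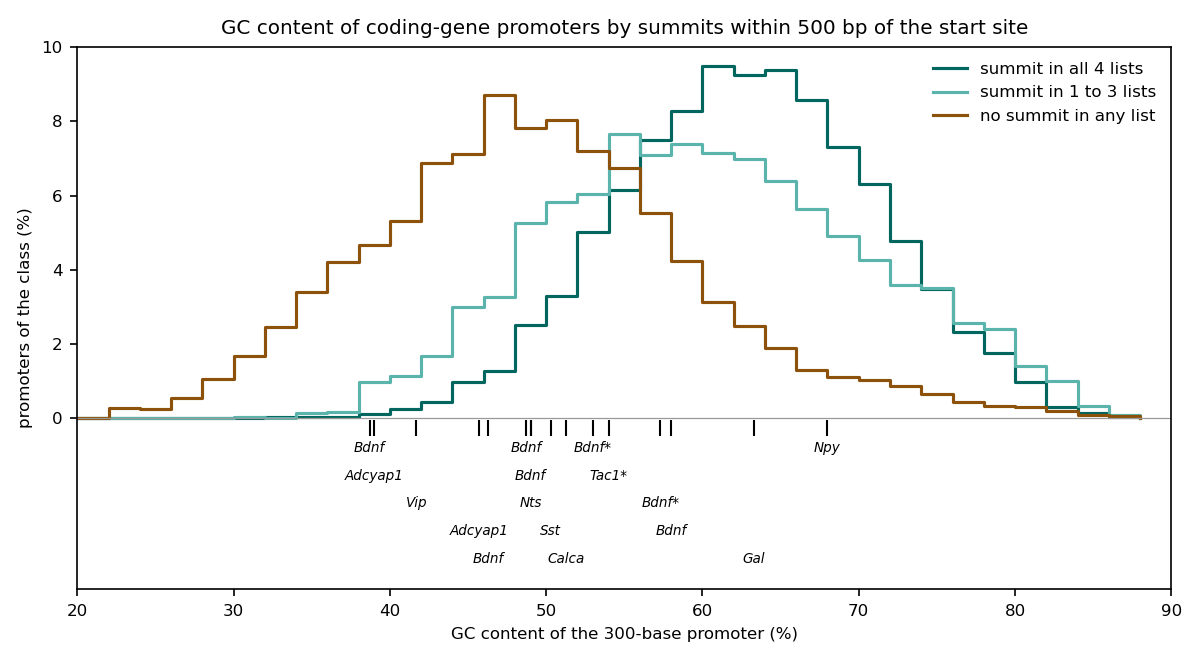
Share of coding-gene promoters (y axis, percent of each class) by GC content of the 300-base promoter (x axis, percent), with 1 line per class of promoters by the number of lists with a summit within 500 bp of the start site. Ticks under the axis are the 16 promoters of members, and an asterisk marks the 3 with a summit in at least 1 list; Npy, at 68.0%, has the highest GC content of the members' promoters and no summit.

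Within the wider neighbourhood, meaning the gene body and 50 kb beyond either end, the 10 genes had 56 summits: 9 of the Silc1-/- injured list, 20 of the Silc1-/- sham list, 22 of the WT injured list and 5 of the WT sham list. That was 0.0251%, 0.0414%, 0.0502% and 0.0183% of these lists. The median coding gene had 3, 4, 4 and 2 summits, and 14 over all lists. Gal had 16, Tac1 14, Sst and Bdnf 8 each, Calcb 7, and Nts, Adcyap1 and Calca 1 each. Gal thus had more than 54.7% of coding genes and Tac1 more than 48.1%, Sst and Bdnf more than 28.2% and Calcb more than 25.4%. Most summits scored below the median of their list: 6 of 9 in Silc1-/- injured, 14 of 20 in Silc1-/- sham, 19 of 22 in WT injured and 3 of 5 in WT sham. Scores of 10 or more were found for 7 of the 56. In the whole lists such scores were found for 8139 of 35815, 11098 of 48332, 13308 of 43841 and 9255 of 27279 summits, in the same order. Only 10 of the 56 were inside a member, and 12 were inside or within 1 kb of an end of another coding gene.

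**Figure D2:**
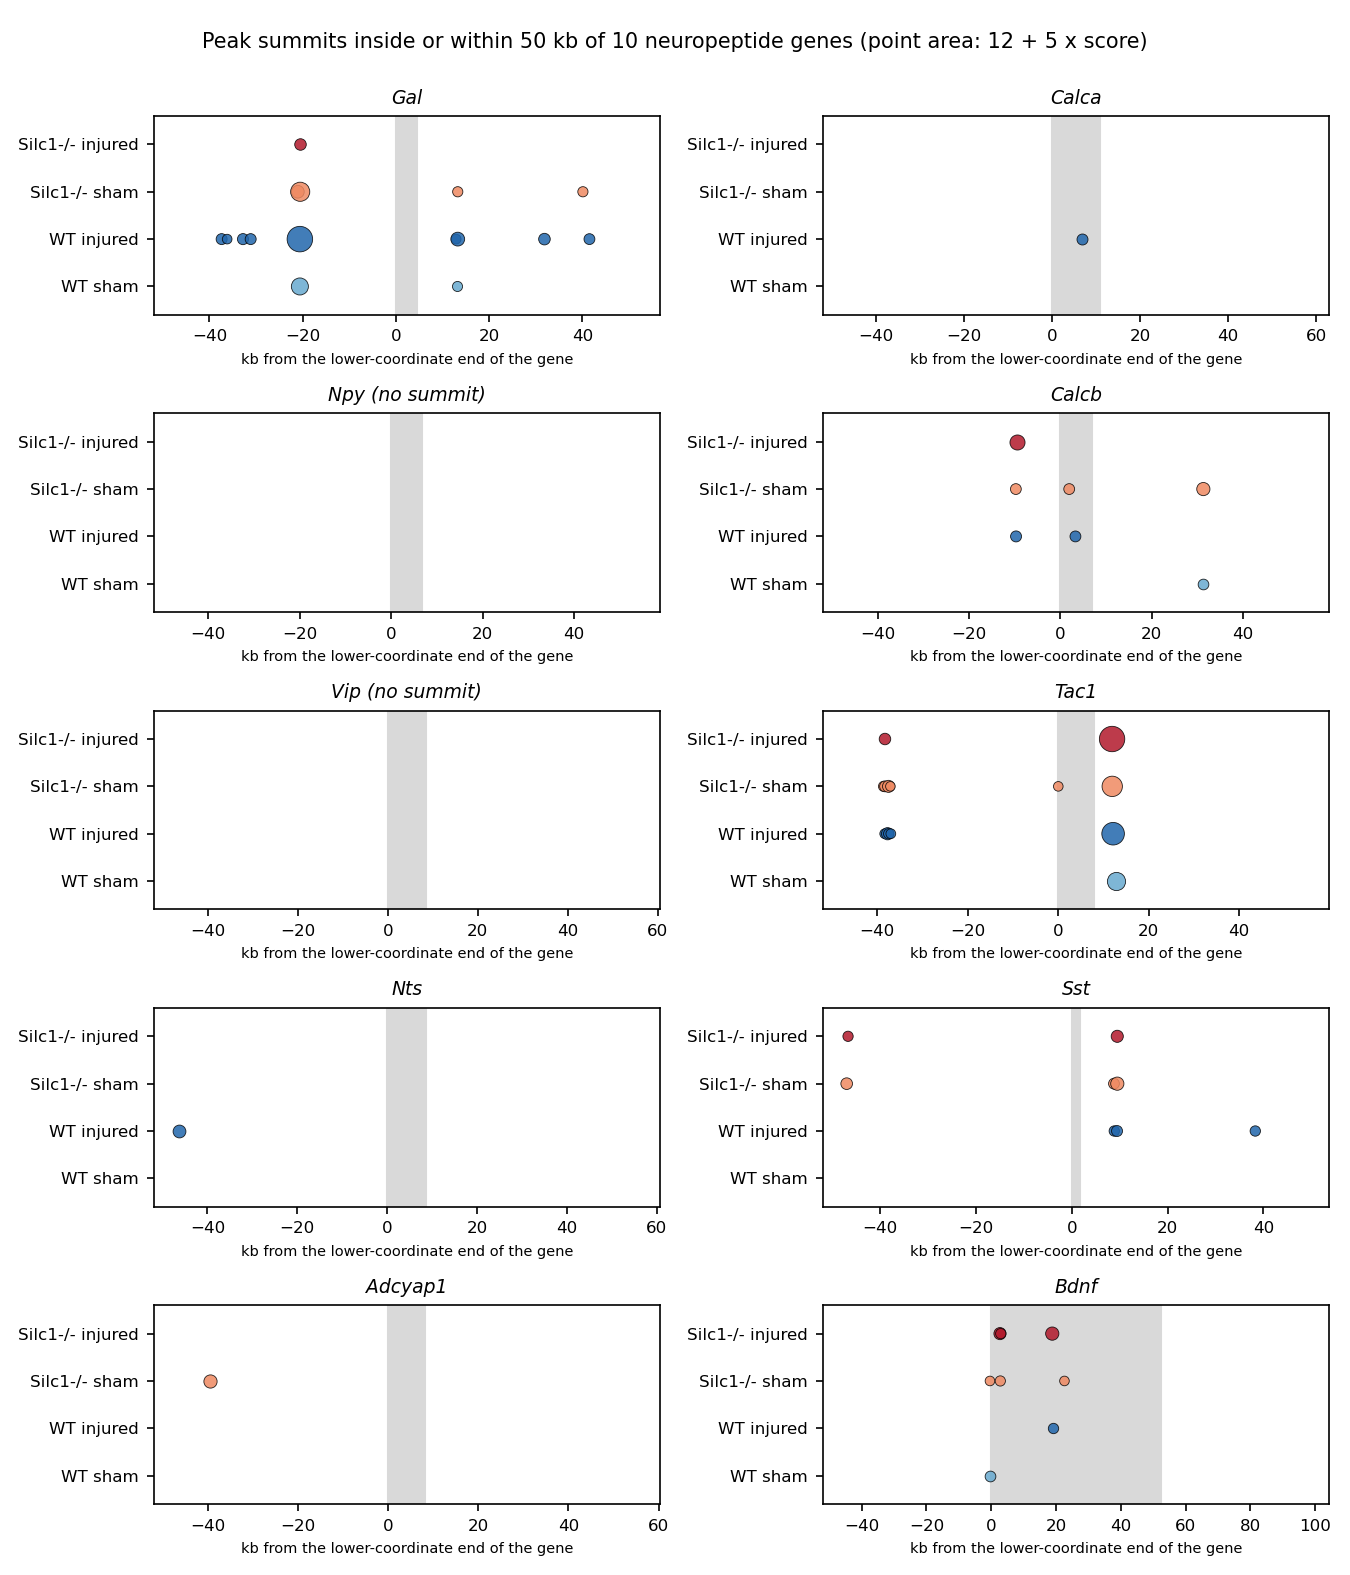
Position of every summit (x axis, kb from the lower-coordinate end of each gene; grey, the gene) in the 4 lists (rows), with point area growing with the score. Gal and Tac1 have the strongest sites, the one at about 20 kb from Gal lying in Tesmin, Npy and Vip have none, and points drawn over each other are separate summits of a cluster.

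Galanin, a peptide that inhibits release from sensory endings and is a classic marker of axotomy, had the most summits of the members. Gal (gene ID 14419, chromosome 19, 3409915 to 3414544, minus strand) had 1 summit in Silc1-/- injured, 4 in Silc1-/- sham, 9 in WT injured and 2 in WT sham. The WT injured count stood above the others. After scaling, the log2 ratio of count + 1 was 1.22 for WT injured over WT sham, but -1.02 for Silc1-/- injured over Silc1-/- sham and -2.11 for Silc1-/- injured over WT injured. The WT ratio depended on weak summits, and all of these ratios depended on list length. With every list reduced to its 27279 highest-scoring summits, Gal had 1 summit in Silc1-/- injured, 2 in Silc1-/- sham, 2 in WT injured and 2 in WT sham, and the ratios were 0 in WT, -0.58 in Silc1-/- and -0.58 between genotypes. In WT the ratio was also near 0 with a 10 kb window (0.19) and at scores of at least 5 (0.22). By the full lists, 0.845% of all coding genes had the pattern of Gal, at least 2-fold higher after injury in WT and at least 2-fold lower in Silc1-/-.

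The strongest site near Gal was at its neighbour Tesmin, which encodes a metallothionein-like protein of the testis. It was the only locus of any member found in all 4 lists when summits within 200 bp were joined. Its summits were at 3389329 in Silc1-/- injured (score 3.77), 3389383 in Silc1-/- sham (14.5), 3389312 in WT injured (27.6) and 3389313 in WT sham (11.0), inside Tesmin within 1 kb of its end and 20.5 to 20.6 kb from Gal. Within each list, 59.1%, 15.7%, 11.8% and 31.5% of summits scored as high or higher, so the site ranked lowest in the Silc1-/- injured list. Ranks in lists of different lengths do not show a change of the site. A weaker summit of Silc1-/- sham lay nearby at 3388878 (5.02).

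The site nearest Gal itself lay in intergenic sequence 8.30 to 8.64 kb upstream of the start site. It had summits at 3423180 in Silc1-/- sham (score 2.42), at 3422849 and 3423181 in WT injured (1.91 and 6.40) and at 3423132 in WT sham (2.32), and none in Silc1-/- injured. Of the 9 WT injured summits, 4 were inside Cpt1a, a gene of mitochondrial fatty acid import, 31.2 to 37.4 kb from Gal, with scores of 1.90 to 3.28 and no summit of another list within 200 bp. Without summits in or within 1 kb of another coding gene, Gal kept 0 summits in Silc1-/- injured, 2 in Silc1-/- sham, 4 in WT injured and 1 in WT sham, and the log2 ratio of WT injured over WT sham was 0.91. The rest were 3 single summits upstream, at 3441783 and 3451434 in WT injured (3.82 and 3.06) and at 3450032 in Silc1-/- sham (2.41).

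The other peptides known to rise had hardly any summits. Npy (chromosome 6, 49822710 to 49829507) and Vip (chromosome 10, 5639193 to 5647617) had none in any list, which held for 8.27% of coding genes. Nts (chromosome 10, 102481756 to 102490418), the gene of neurotensin, had 1 in WT injured, at 102435334, 46.4 kb away (score 5.19). Adcyap1 (chromosome 17, 93198245 to 93206541), the gene of PACAP, had 1 in Silc1-/- sham, at 93158684, 39.6 kb away (5.67). Neither was repeated in another list.

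Between 50 and 100 kb from a member, sites with summits of all 4 lists, joined within 1 kb of each other, were found near 7 genes: Gal, Npy, Vip, Adcyap1, Calca, Tac1 and Sst. Those of Npy, Adcyap1 and Calca are given here. Downstream of Npy, the first summits were 57.0 to 57.4 kb from the gene, at 49886944 in Silc1-/- injured (score 27.3), 49886556 in Silc1-/- sham (30.1), 49886477 in WT injured (31.9) and 49886800 in WT sham (21.5). A site 82.7 to 82.8 kb from Adcyap1 had summits of all 4 lists within 85 bp, with scores of 11.5 in Silc1-/- injured, 8.73 in Silc1-/- sham, 13.4 in WT injured and 15.6 in WT sham. One at an end of Cyp2r1, 62.9 to 63.4 kb from Calca, had scores of 6.55, 16.7, 20.3 and 13.8 in the same order of lists. Vip had its nearest summit 51.5 kb away in Silc1-/- injured (3.73), 62.9 kb in Silc1-/- sham, 84.1 kb in WT injured and 63.6 kb in WT sham. Just inside the limit were the Nts summit at 46.4 kb and summits of Sst at 46.7 and 47.0 kb.

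Among the peptides known to fall, Tac1 had the clearest site. Tac1 (gene ID 21333, chromosome 6, 7555061 to 7562978, plus strand) had 2 summits in Silc1-/- injured, 6 in Silc1-/- sham, 5 in WT injured and 1 in WT sham. A site 4.01 to 4.81 kb beyond the end of the gene was present in every list, at 7566992 in Silc1-/- injured (score 27.3), 7567026 in Silc1-/- sham (16.7), 7567222 in WT injured (21.1) and 7567786 in WT sham (12.9). Within each list, 5.07%, 13.3%, 16.1% and 27.2% of summits scored as high or higher, which placed it highest in the Silc1-/- injured list. The 4 summits spread over 794 bp, so that the WT sham one was not joined to the rest at 200 bp. No annotated gene covered the site.

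Farther upstream of Tac1, at 37.0 to 38.6 kb from its start site, 9 weak summits formed a cluster of 1608 bp, with 1 summit of Silc1-/- injured, 4 of Silc1-/- sham, 4 of WT injured and none of WT sham. Their scores were 1.87 to 4.49. This cluster made up most of the difference in count between lists. The log2 ratio for Tac1 was 1.16 in WT injured over WT sham, 1.26 in Silc1-/- sham over WT sham, -0.88 in Silc1-/- injured over Silc1-/- sham and -0.78 in Silc1-/- injured over WT injured. The first pair of these ratios shares the WT sham list, in which Tac1 had a single summit. With a 10 kb window the WT injury ratio was -0.36, from 1 summit in each list. Tac1 at equal list length had 2 summits in Silc1-/- injured, 1 in Silc1-/- sham, 2 in WT injured and 1 in WT sham, so that the ratio was 0.58 in both genotypes after injury.

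Sst (gene ID 20604, chromosome 16, 23889573 to 23891342, minus strand), the gene of somatostatin, an inhibitory peptide of a subset of itch and pain neurons, had 2 summits in Silc1-/- injured, 3 in Silc1-/- sham, 3 in WT injured and 0 in WT sham. Most were in a group 7.05 to 7.74 kb from the upstream end of the gene. It held 1 summit in Silc1-/- injured (23899077, score 4.39), 2 in Silc1-/- sham (23898389 and 23899083, 3.01 and 5.67) and 2 in WT injured (23898455 and 23899028, 2.57 and 3.18). Farther off, the long noncoding RNA gene Gm31430 held a summit of Silc1-/- injured (23842842, 2.48) and one of Silc1-/- sham (23842558, 3.86), and Rtp2 one of WT injured (23927907, 2.57). WT sham had its nearest summit 96.7 kb from the gene. The log2 ratio was 1.87 in WT injured over WT sham and 1.77 in Silc1-/- sham over WT sham, again with the same WT sham list below both. Sst at equal list length had 1 summit in Silc1-/- injured, 1 in Silc1-/- sham and none in either WT list.

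The paired CGRP genes lie near each other on chromosome 7 and their neighbourhoods overlap, but no summit fell in the overlap. Calca (gene ID 12310, 114625981 to 114636910, minus strand), which also encodes calcitonin, had a single summit, inside the gene, in WT injured (114632814, score 3.18). Calcb (gene ID 116903, 114716555 to 114723368) had 1 in Silc1-/- injured, 3 in Silc1-/- sham, 2 in WT injured and 1 in WT sham. A site 9.59 to 9.75 kb below the gene's lower-coordinate end lay within 1 kb of the pseudogene Gm15500 and was shared by 3 lists, with scores of 8.10 in Silc1-/- injured, 3.01 in Silc1-/- sham and 3.18 in WT injured. Inside the gene, Silc1-/- sham had a summit at 114718475 (3.01) and WT injured had one at 114719837 (3.06). Both sham lists had a summit in the neighbouring gene Insc, at 114747830 in Silc1-/- sham (5.64) and 114747757 in WT sham (2.88).

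Bdnf (gene ID 12064, chromosome 2, 109674700 to 109727043, plus strand), a growth factor that sensory neurons release onto spinal neurons through the receptor TrkB, had 3 summits in Silc1-/- injured, 3 in Silc1-/- sham, 1 in WT injured and 1 in WT sham. All but the pair before the first start site lay inside the gene. Both injured lists shared a locus 514 and 598 bp after the fourth start site, at 109693541 in Silc1-/- injured (score 5.69) and 109693625 in WT injured (2.57). Single further summits were at 109677631 in Silc1-/- injured (2.48) and at 109697307 in Silc1-/- sham (1.87). The locus at the fourth start site was the only one of a member found in both injured lists and in neither sham list. The log2 ratio for Bdnf was 1.17 in Silc1-/- injured over WT injured and -0.36 in WT injured over WT sham. With lists of equal length the first was 1.58, from 2 summits against 0, and the other rested on 0 against 1 summit.

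**Figure D3:**
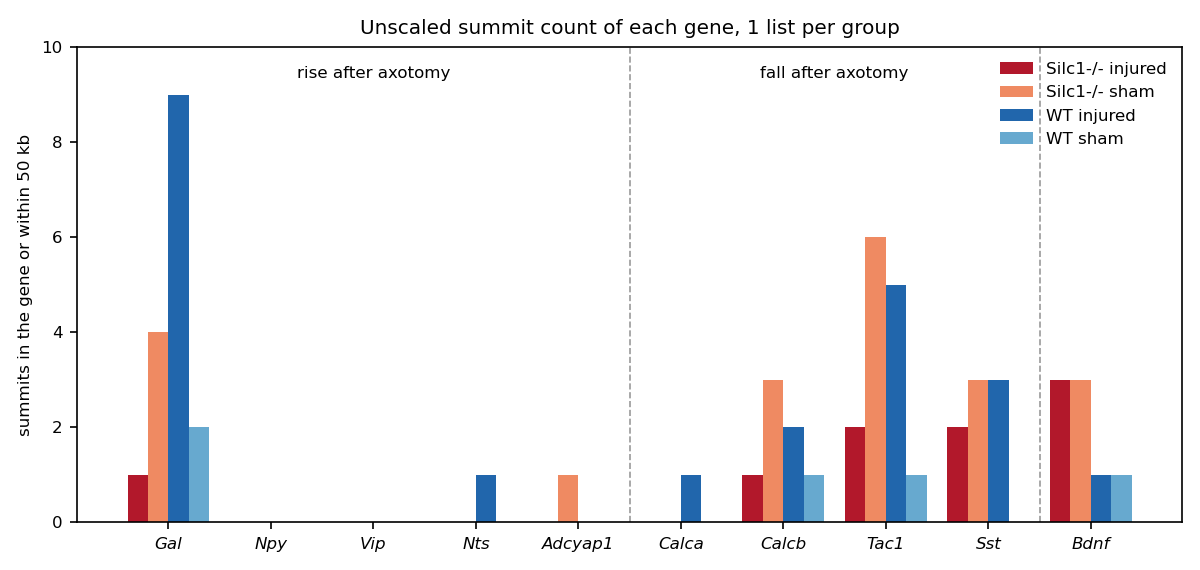
Unscaled number of summits (y axis) in the gene body or within 50 kb of each gene (x axis), with 1 bar for each of the 4 lists and no error, since each group has 1 list. Gal has 9 in WT injured against 1 in Silc1-/- injured, and WT sham has at most 2 for any gene.

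Joined at 200 bp, the 56 summits formed 35 loci. Of these, 22 (62.9%) were in 1 list, against 52.4% of all 78381 loci, and 1 was in all 4 lists, against 18.3%. The single-list loci were 1 of Silc1-/- injured, 8 of Silc1-/- sham, 12 of WT injured and 1 of WT sham. One locus was in both injured lists alone, the Bdnf locus above, where 2.72% of all loci were. The 2 in both sham lists alone were at the first start site of Bdnf and in Insc near Calcb, where 1.51% of all loci were.

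Counted by gene, at most 3 of 10 members were past a 2-fold ratio of scaled count + 1 in one direction. For WT injured over WT sham, 3 of 10 were higher (Gal, Tac1 and Sst) and 0 lower, against 5.40% and 3.54% of all coding genes; the median log2 ratio was 0.55 over members and 0 over all genes. For Silc1-/- injured over Silc1-/- sham, 0 were higher and 1 lower (Gal), against 4.74% and 4.92%, with a median of -0.05 over members and 0 over all genes. For Silc1-/- sham over WT sham, 2 were higher (Tac1 and Sst) and 0 lower, against 6.81% and 5.61%, with medians of 0.31 and -0.07. For Silc1-/- injured over WT injured, 1 was higher (Bdnf) and 1 lower (Gal), against 4.84% and 5.51%, with medians of -0.31 and 0. With so few summits per gene, 1 or 2 summits decide such a ratio.

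The comparison of peptides known to rise with those known to fall did not set them apart in these lists. The 5 rising genes had 1 summit in Silc1-/- injured, 5 in Silc1-/- sham, 10 in WT injured and 2 in WT sham, and the 4 falling genes had 5, 12, 11 and 2. In WT, both sets had more summits after injury: the log2 ratio of scaled sums was 1.64 for rising peptides (95% interval -0.59 to 4.87) and 1.77 for falling peptides (-0.42 to 4.99), a difference of -0.14 (-3.22 to 2.95). In Silc1-/- ganglia both had fewer after injury, at -1.89 (-7.45 to 1.27) and -0.83 (-2.69 to 0.78), a difference of -1.06 (-4.50 to 2.38). At equal list length these directions were not all kept. In WT the rising set had 3 summits after injury and 2 after sham (0.58) and the falling set 2 and 2 (0). In Silc1-/- the rising set had 1 and 3 (-1.58) and the falling set 4 and 3 (0.42). Intervals cover counting error only and treat summits as independent, which clustered summits are not. They are wide enough to allow a difference of several fold either way, so the sets are not shown to behave alike.

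Between genotypes, the rising set differed most after injury, through 1 gene. For Silc1-/- injured over WT injured its log2 ratio was -3.03 (-8.47 to -0.22), from 1 summit against 10, and Gal gave 1 against 9 of these. At equal list length it was -1.58, from 1 against 3. The falling set was at -0.85 (-2.72 to 0.80), and the difference of -2.18 (-5.52 to 1.15) had an interval that includes 0. For Silc1-/- sham over WT sham, the rising set was at 0.50 (-2.11 to 3.89) and the falling set at 1.76 (-0.41 to 4.96), with a difference of -1.26 (-4.47 to 1.94). Without Gal, the rising set held 0 summits in Silc1-/- injured, 1 in Silc1-/- sham, 1 in WT injured and 0 in WT sham, which allows no ratio. With a 100 kb window the rising set had 10 summits in Silc1-/- injured against 20 in WT injured, a log2 ratio of -0.71, and 20 in WT injured against 10 in WT sham, a ratio of 0.32.

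**Figure D4:**
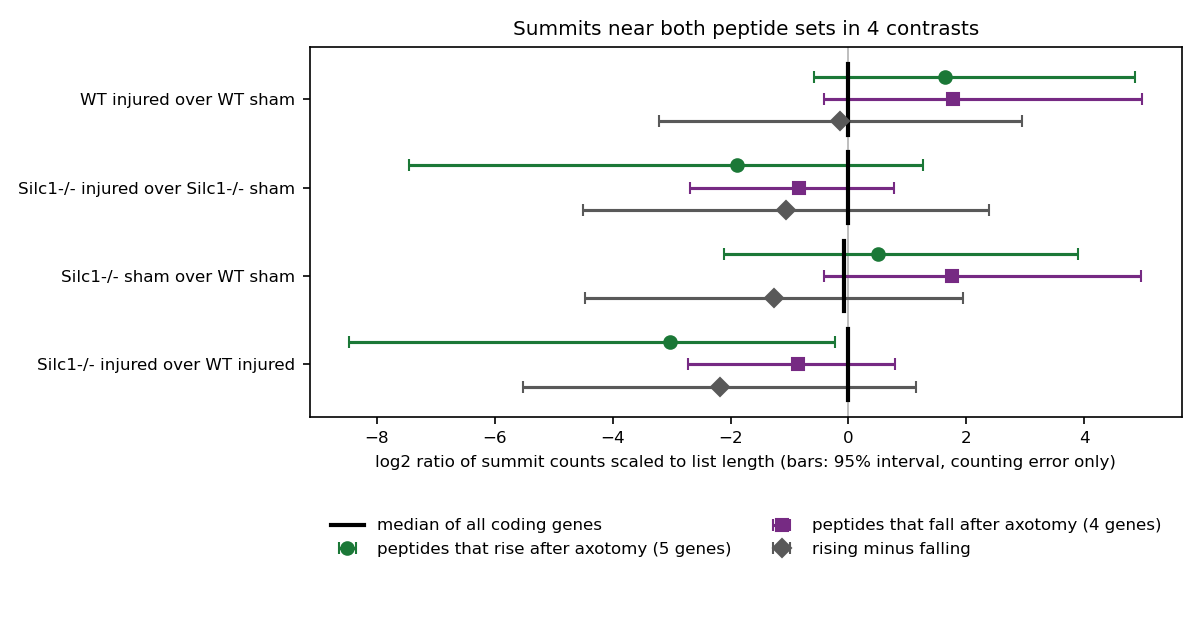
Log2 ratio of summit counts scaled to list length (x axis) for peptides that rise and that fall after axotomy, and their difference, in 4 contrasts (y axis); bars are 95% intervals for counting error and black lines the median of all coding genes. In WT injured over WT sham the sets sit at 1.64 and 1.77, and only the rising set in Silc1-/- injured over WT injured has an interval without 0.

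Genes that process and sense the peptides were richer in summits than the peptide genes. The 13 genes of peptide processing and vesicle release, none without a summit, had a median of 22 over all lists, against 14 for all coding genes and 1 and 7.5 for rising and falling peptides. A start-site summit was present in at least 1 list in 8 of 11 with an annotated start site. Over all coding genes with a start site in the table, 43.1% had none in any list. The count takes in the gene body, and Cadps and Pam span 451 and 275 kb. They had 61 summits in Silc1-/- injured, 79 in Silc1-/- sham, 64 in WT injured and 39 in WT sham. Those with most were Cadps, a factor that primes dense-core vesicles (8, 13, 11 and 3 in the same order), Pam, the enzyme that amidates peptide ends (9, 11, 8 and 4), and Scg3, a granule protein (7, 10, 6 and 6). By the 2-fold rule, 1 was higher and 0 lower for WT injured over WT sham (Cadps, log2 ratio 1.03), against 5.40% and 3.54% of all coding genes, and 0 and 0 for Silc1-/- injured over Silc1-/- sham (4.74% and 4.92%). For Silc1-/- sham over WT sham 2 were higher and 0 lower (6.81% and 5.61%), and for Silc1-/- injured over WT injured 1 and 0 (4.84% and 5.51%).

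Receptors for these peptides had 52, 80, 82 and 49 summits in the same order near 21 genes, with a median of 11 and 2 genes without any. That median was above those of the peptide sets but below the 14 of all coding genes. A start-site summit was present in at least 1 list in 9 of 16 with an annotated start site, where 43.1% of all coding genes had none. Vipr1, a receptor of VIP and PACAP, had 9, 7, 8 and 8, Sort1, which binds neurotensin and pro-neurotrophins, 5, 8, 8 and 5, and Ntrk2, which encodes TrkB, 4, 9, 6 and 4. Ntrk2 spans 327 kb, and its count too takes in the gene body. By the 2-fold rule, 1 of the 21 was higher and 0 lower for WT injured over WT sham, against 5.40% and 3.54% of all coding genes. For Silc1-/- injured over Silc1-/- sham these were 0 and 2 (4.74% and 4.92%). For Silc1-/- sham over WT sham they were 1 and 1 (6.81% and 5.61%), and for Silc1-/- injured over WT injured 0 and 3 (4.84% and 5.51%). The 13 other peptide genes of sensory neurons also had few start-site summits. In any list 1 of 9 had one, where 43.1% of all coding genes had none. They had 30, 35, 30 and 26 summits, with a median of 6. By the 2-fold rule, 1 of the 13 was higher and 2 lower for WT injured over WT sham (5.40% and 3.54% of all coding genes). For Silc1-/- injured over Silc1-/- sham these were 0 and 0 (4.74% and 4.92%). They were 0 and 1 both for Silc1-/- sham over WT sham (6.81% and 5.61%) and for Silc1-/- injured over WT injured (4.84% and 5.51%). Those with most were Nmb (5, 8, 5 and 4), Ucn (5, 4, 3 and 5) and Pnoc (3, 4, 4 and 4).

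Counts like those of Gal and Tac1 were found near genes on other chromosomes. Likeness was the Euclidean distance between the 4 values log2(scaled count + 1), over coding genes on other chromosomes whose total was no more than 5 below that of the member. Closest to Gal among 13056 genes were Cdadc1 and Fli1, each with 1, 4, 8 and 2 summits in Silc1-/- injured, Silc1-/- sham, WT injured and WT sham, at a distance of 0.15. Closest to Tac1 among 14250 genes were 0610010K14Rik and Acaca, each with the same 2, 6, 5 and 1 summits, at a distance of 0. Ties were ordered by symbol, so other genes may be equally close.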

How the data were processed

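ATAC-seq libraries of 12 samples fell into 4 groups of 3 by title, genotype and treatment labels. Per the submitters' processing notes, Bowtie2, MACS2 and the mm10 build were used; the sources used here do not give versions, read filters, any shift for the transposase or whether libraries were pooled. The authors deposited 1 summit list per group, each line a position and a −log10 score; whether it comes from p-values or q-values is unstated. The smallest score was 1.30, that of 0.05. Scores were ranked only within a list. Minimum scores of 5 and 10 were the same for all lists, although the median score ran from 4.77 in Silc1-/- injured to 6.33 in WT sham.

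Genes, start sites and promoter sequences came from RefSeq tables (GRCm38.p6), in which all 10 members matched by symbol and 9 had promoters. Positions are 1-based. Summits inside or within 50 kb of a gene were counted and scaled by mean over own list length; gene ratios use a pseudocount of 1, so genes with few summits show too small a change, and set ratios use distinct summits and none. Intervals are exact binomial for a set and from the log odds ratio for a difference of sets. Loci join summits within 200 bp. Members and gene lists were chosen with earlier results of these data known. All members were named, as were the 3 genes with most summits of each other list, 2 genes most like the richest member of each set, and genes in which a described summit lies. The promoters shown were chosen after their values were seen. Alternatives were windows of 10 and 100 kb, minimum scores of 5 and 10, lists of equal length, 2 other scalings, joining within 50, 500 and 1000 bp, a pseudocount of 0.5, counting summits once for each member and leaving out summits at other coding genes. Counting and joining were tested on simulated data. Python 3.11.15, numpy 2.4.6, pandas 2.3.3, scipy 1.17.1 and matplotlib 3.10.9 were used.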

Additional observations from a re-analysis of the deposited data

Results flagged for a closer look

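By the full lists, the injury contrast of Gal pointed in opposite directions in the 2 genotypes. The log2 ratio of injured over sham was -1.02 in Silc1-/- and 1.22 in WT, so that Silc1-/- minus WT was -2.24. The same held for the set of peptides known to rise after axotomy, at -1.89 in Silc1-/- and 1.64 in WT, a difference of -3.53, of which Gal supplied nearly all summits. The difference was not tested, since each group has 1 list. The lists as a whole differ the same way in length, with 35815 summits in Silc1-/- injured against 48332 in Silc1-/- sham and 43841 in WT injured against 27279 in WT sham. At equal list length the ratio of Gal was -0.58 in Silc1-/- and 0 in WT, so that the opposite directions were lost. The rising set was at -1.58 in Silc1-/- and 0.58 in WT, from 1 against 3 summits and 3 against 2. For Gal the opposite directions were also lost at scores of at least 10, with -0.96 in Silc1-/- and -0.25 in WT. For that gene they were kept at scores of at least 5 (-1.48 and 0.22). The same was true with windows of 10 kb (-0.85 and 0.19) and 100 kb (-0.49 and 0.49).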

How the results depend on the processing

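No paired analysis was possible because each group has 1 list and the replicate numbers of the libraries appear in none of them; for the same reason no library could be left out. Many of the ratios rest on weak summits. At scores of at least 5, the falling set was at -0.64 in WT injured over WT sham and at 1.49 in Silc1-/- injured over WT injured. At scores of at least 10, the WT injury ratio was -0.52 in both sets and the falling set was at -0.26 in Silc1-/- sham over WT sham. At equal list length (27279 summits) the falling set was at 1.00 in Silc1-/- injured over WT injured and 0 in WT injured over WT sham, and Gal was at 0 in WT injured over WT sham as well. Tac1 in WT injured over WT sham turned to -0.36 with a 10 kb window, -0.32 at scores of at least 5 and -0.25 at 10, and in Silc1-/- sham over WT sham to -0.26 and -0.13 at scores of at least 5 and 10; Gal in WT injured over WT sham turned to -0.25 at 10. In each of these the counts were at most 4. The difference between the sets in WT injured over WT sham was -1.58 with a 10 kb window, 1.58 at scores of at least 5 and 0.58 at equal length, all within its interval. All these settings leave fewer summits, and the cause of the changes was not tested.

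Locus counts also depended on settings. The 1 locus in both injured lists alone became 0 when joined within 50 bp, at scores of at least 5 and 10 and at equal length, and 2 with a 100 kb window. The 2 in both sham lists alone became 1 when joined within 50 bp, with a 10 kb window and at equal length, and 0 at scores of at least 5 and 10. The 1 in all lists became 0 when joined within 50 bp, with a 10 kb window and at scores of at least 5 and 10, 2 when joined within 1000 bp and 9 with a 100 kb window. Without scaling, the median of all genes was 0.38 in WT injured over WT sham and -0.24 in Silc1-/- injured over Silc1-/- sham. The rising set had 0 summits in Silc1-/- injured with a 10 kb window, at scores of at least 5 and 10 and without summits at other coding genes (a setting chosen after seeing the data), so its ratios to that list have no value there. The other 94 values of set ratios and locus counts lay within the interval of the reported value or within 1.5 times of the count. For single genes 340 did so within counting error, and 14, all with the 100 kb window, did not. Both the 94 and the 340 include changes of sign. The rising set in Silc1-/- sham over WT sham went from 0.50 to -0.83 with a 10 kb window. It was at -0.26 at scores of at least 10. The falling set in Silc1-/- injured over Silc1-/- sham went from -0.83 to 0.42 at equal length and 0.45 at scores of at least 10. In Silc1-/- injured over WT injured the falling set went from -0.85 to 0.71 at scores of at least 10. At equal list length, Tac1 in Silc1-/- injured over Silc1-/- sham went from -0.88 to 0.58. Calcb in both WT injured over WT sham and Silc1-/- injured over WT injured also changed sign there. So did Sst in Silc1-/- injured over WT injured and Bdnf in Silc1-/- sham over WT sham. Npy and Vip, without summits within 50 kb, could only change with the 100 kb window.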
